A study of Mus musculus with 12 samples.

Results

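ATP-binding cassette (ABC) transporters were described in mouse bone marrow neutrophils cultured for 24 h with bile acids. The 8 members, Abcg3, Abcg1, Abcg2, Abca1, Abca7, Abcb1a, Abcb1b and Abcc1, were taken by name from a count table of 29737 genes. Abcg3 was chosen by its count level, which is higher with tauro-β-muricholic acid (Tβ-MCA) in these same samples. Abca1 and Abcg1 were included because their transcription is activated by the liver X receptors (LXRs). The contrast of Tβ-MCA with PBS is therefore given for the 8 members as a description, with no test.

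Wild-type neutrophils were selected as Ly6G+ cells on magnetic beads and kept in RPMI 1640 medium with fetal bovine serum. For mouse neutrophils the written methods name a separating medium and an enrichment kit instead, so the way of isolation is uncertain. The mice were female C57BL/6 animals of 4 to 6 weeks of age. All cells thus shared the genotype, the sort and the serum, and the groups differed by what was added to the medium. PBS alone was the control, and the others received 200 μM taurocholic acid (TCA), 200 μM glycocholic acid (GCA) or 10 μM Tβ-MCA by the labels. The written methods give one common dose for the bile acids, so the dose of Tβ-MCA is uncertain and it is not tested against TCA or GCA here. Each group had 3 samples, 12 in all. The sources used here do not say whether they came from separate mice or cultures, so a p-value measures only the spread between these samples.

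ABC transporters are membrane proteins that use ATP to move lipids, drugs, peptides or conjugates across membranes. ABCG proteins work as dimers. Abca1 passes cholesterol and phospholipid to lipid-poor apolipoproteins, and Abcg1 passes cholesterol on to high-density lipoprotein. Both are classical targets of LXRα (Nr1h3) and LXRβ (Nr1h2), nuclear receptors that bind oxidised cholesterol. Abcg3 is a rodent gene closely related to the drug efflux pump Abcg2, with no human counterpart. Conjugated bile acids such as those tested here do not cross membranes freely and need carriers to do so.

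Abcg3 lies at chr5:104935057-104982718 on the minus strand of GRCm38 in the deposited table, and Abca1 at chr4:53030787-53159895 on the minus strand. Abcg2 (chr6:58584523-58695676), Abca7 (chr10:79996494-80015572), Abcg1 (chr17:31057698-31115777) and Abcc1 (chr16:14361558-14475737) are on the plus strand. Abcb1a (chr5:8660077-8748575) and Abcb1b (chr5:8798147-8866315), also on the plus strand, are neighbours that both encode P-glycoprotein. Abcb1a and Abcb1b shared sequence, and 22.5% of the 50-base words of Abcb1a exons occurred in exons of other genes, chiefly Abcb1b. Of Abcb1b exon words, 12.8% occurred elsewhere, so the division of reads between these 2 genes is uncertain. Exons of each also overlapped a gene model on the other strand, and the use of strand in counting was not given in the sources used here. Abcg3, Abca1 and Abca7 shared no 50-base exon word with another gene.

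Promoters of Abcg3 and Abca1 are shown because the values of one and the LXR readout of the other carry the results. They are the 250 bases before the transcription start in RefSeq (GRCm38.p6), at chr5:104982718-104982967 and chr4:53159896-53160145, both read 5′ to 3′ on the minus strand. Capitals mark every match to the motifs searched on both strands.
Abcg3: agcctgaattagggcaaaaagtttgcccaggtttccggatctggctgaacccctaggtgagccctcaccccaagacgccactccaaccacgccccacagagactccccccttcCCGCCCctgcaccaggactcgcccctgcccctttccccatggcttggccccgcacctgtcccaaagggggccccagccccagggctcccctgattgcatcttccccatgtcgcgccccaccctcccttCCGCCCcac
Abca1: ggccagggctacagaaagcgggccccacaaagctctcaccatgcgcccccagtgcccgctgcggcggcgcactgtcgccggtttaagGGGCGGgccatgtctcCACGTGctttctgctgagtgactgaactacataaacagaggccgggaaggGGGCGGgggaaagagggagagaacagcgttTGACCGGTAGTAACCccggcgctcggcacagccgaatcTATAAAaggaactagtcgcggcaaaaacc

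In the Abcg3 window the capitals are matches to the GC box GGGCGG on the opposite strand, starting 137 and 9 bases before the transcription start. The Abca1 window held 2 GC boxes, an E-box (CACGTG) and a TATA box (TATAAA) 29 bases before the start. Among 32851 promoter windows of this length, 32.7% held a GC box, 6.02% the E-box and 12.4% the TATA box. The strict LXR element, AGGTCA repeated after a gap of 4 bases, was in 0.0152% of windows and in none of a member. A looser form, GGTNA and then GGTCA after a gap of 5 bases, was written after the Abca1 window had been read. It matched Abca1 on the opposite strand, starting 67 bases before the start, and 0.177% of all windows. The half-element AGGTCA, in 14% of windows, was found among the members in Abcg2 alone, in its windows at chr6:58584283 and chr6:58640296. The interferon-type element, TTTC repeated after a gap of 2 bases and found in 2.98% of windows, was in no member. Of the 8 members 6 had a promoter in the table, Abcg2 having 3, and Abcg1 and Abcc1 were not among them. Abcg2 thus had more windows in which to match than the others. For its window at chr6:58584283 and for that of Abcb1a, the bases after the start were not found in an annotated transcript of the gene.

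Libraries held 32757389 to 41375925 counts, and 16761 genes passed the filter on low counts, all 8 members among them. Values are given as CPM, a gene's counts scaled to a fixed library total, and, between genes, as RPKM, which is also scaled to gene length. All 10 neutrophil markers were detected in each library, with a summed level of 33492 to 40436 CPM with PBS and 26194 to 30667 CPM with Tβ-MCA. Monocyte and macrophage markers summed to 971 to 998 CPM with PBS, 868 to 1038 CPM with TCA and 685 to 957 CPM with GCA. With Tβ-MCA they summed to 261, 315 and 757 CPM in replicates 3, 4 and 5, and all 12 of 12 markers had a lower mean than with PBS. Most of this sum came from F13a1 and Csf1r. They averaged 544 and 249 CPM with PBS and 166 and 186 CPM with Tβ-MCA. Eosinophil markers summed to 137 to 241 CPM with PBS and 54.1 to 124 CPM with Tβ-MCA, with 5 of 5 markers lower in mean. Lower means with Tβ-MCA were not particular to these types. They held for 9 of 10 neutrophil, 6 of 6 B cell and 5 of 5 basophil and mast cell markers, and for 4 of 8 dendritic cell markers. The neutrophil sum was mostly S100a9, at a mean of 22948 CPM with PBS and 18687 CPM with Tβ-MCA. Camp averaged 563 and 255 CPM, and Csf3r, which was not lower, 994 and 1029 CPM. None of the markers of these lists was at 0 in all 12 libraries. In these bulk samples, fewer cells of a type and less RNA per cell cannot be told apart. The part of other cell types in the results below was not tested.

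The members spanned a wide range of levels per length. Over the 12 samples, the mean was 18.4 RPKM for Abca7, 3.32 RPKM for Abcc1, 1.46 RPKM for Abcg1 and 0.936 RPKM for Abca1. It was 0.521 RPKM for Abcb1b, 0.280 RPKM for Abcg3, 0.179 RPKM for Abcg2 and 0.107 RPKM for Abcb1a. Abca7 ranked 4 of 49 ABC genes in the table, behind Abcf1, Abcf2 and Tap2, while Abcg3 ranked 32. The sample ranges of Abca7, Abcc1 and Abcg1 did not meet each other. Those of Abcg1 and Abca1 overlapped, as did those of Abcg3, Abcg2 and Abcb1a, so these neighbours in the order are not separated by their spread. Abcg3 changed its place with the group. Its mean was 0.140 RPKM with PBS, beside 0.156 RPKM for Abcg2, and 0.581 RPKM with Tβ-MCA, beside 0.544 RPKM for Abcb1b.

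**Figure D1:**
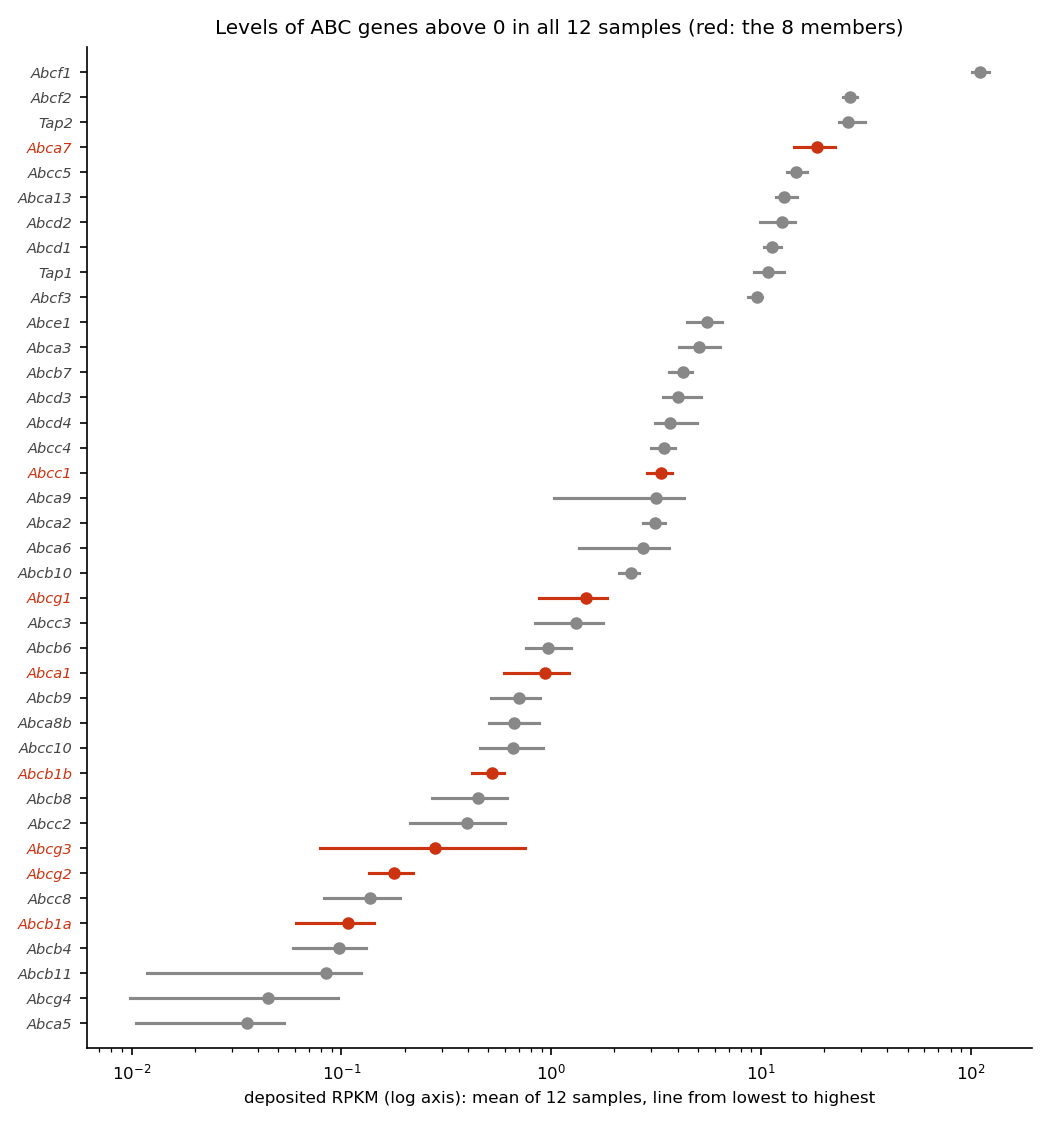
Deposited RPKM (x axis, log scale) of the ABC genes that were above 0 in all 12 samples, with the mean as a point, the lowest to highest sample as a line, and the 8 members in red. Abca7 stands near the top at 18.4 RPKM and Abcb1a near the bottom at 0.107 RPKM, and Abcg3 has the widest line of the members.

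Abcg3 was a rare transcript in control cells. With PBS it had 10, 10 and 34 counts in replicates 3, 5 and 6, or 0.287, 0.294 and 0.916 CPM. With TCA the CPM was 0.372, 0.676 and 0.758 in replicates 3, 4 and 5, and with GCA it was 0.676, 1.46 and 0.285. With Tβ-MCA it was 2.09, 2.59 and 1.36, from 70, 96 and 51 counts. All 3 Tβ-MCA samples lay above all PBS and TCA samples, whereas GCA replicate 4 lay above Tβ-MCA replicate 5. PBS replicate 6 stood apart from the other PBS samples and above all 3 TCA samples.

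By group, Abcg3 averaged 0.499 ± 0.361 CPM with PBS, 0.602 ± 0.203 CPM with TCA, 0.807 ± 0.598 CPM with GCA and 2.02 ± 0.617 CPM with Tβ-MCA (SD, n = 3 each). In this order PBS, TCA and GCA were not separated by their spread. The fitted log2 fold change of Tβ-MCA over PBS was 1.99 ± 0.54 (SE), a 3.98-fold higher level. This is the contrast for which the gene was chosen, and 7.62% of all genes tested passed an adjusted p of 0.05 in it. Without PBS replicate 6 the log2 fold change was 2.78, and without each other sample of the 2 groups it ranged down to 1.72. The log2 fold change was 0.27 ± 0.59 with TCA (95% interval -0.997 to 1.53) and 0.66 ± 0.57 with GCA (-0.57 to 1.90). Neither passed the test, with adjusted p = 0.9999 and 0.9987 by edgeR's quasi-likelihood test. Without GCA replicate 4 the log2 fold change with GCA was -0.08, so this library set its sign.

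The monocyte and macrophage marker sums stood beside Abcg3 as follows. Tβ-MCA replicates 3 and 4, with sums of 261 and 315 CPM, had 2.09 and 2.59 CPM of Abcg3, and Tβ-MCA replicate 5, with 757 CPM, had 1.36 CPM. GCA replicate 4, at 1.46 CPM, had the lowest sum of its group, 685 CPM. GCA replicates 3 and 5 had sums of 932 and 957 CPM and 0.676 and 0.285 CPM of Abcg3. PBS replicate 6, which was high for its group, had the highest sum among PBS samples, 998 CPM. TCA replicate 3 had a sum of 868 CPM and 0.372 CPM of Abcg3, and TCA replicates 4 and 5 had higher values of both, with sums of 1038 and 1032 CPM and 0.676 and 0.758 CPM of Abcg3. Low sums thus stood beside high Abcg3 within the Tβ-MCA and GCA groups, and not within TCA or PBS. A link between the sums and Abcg3 was not tested.

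**Figure D2:**
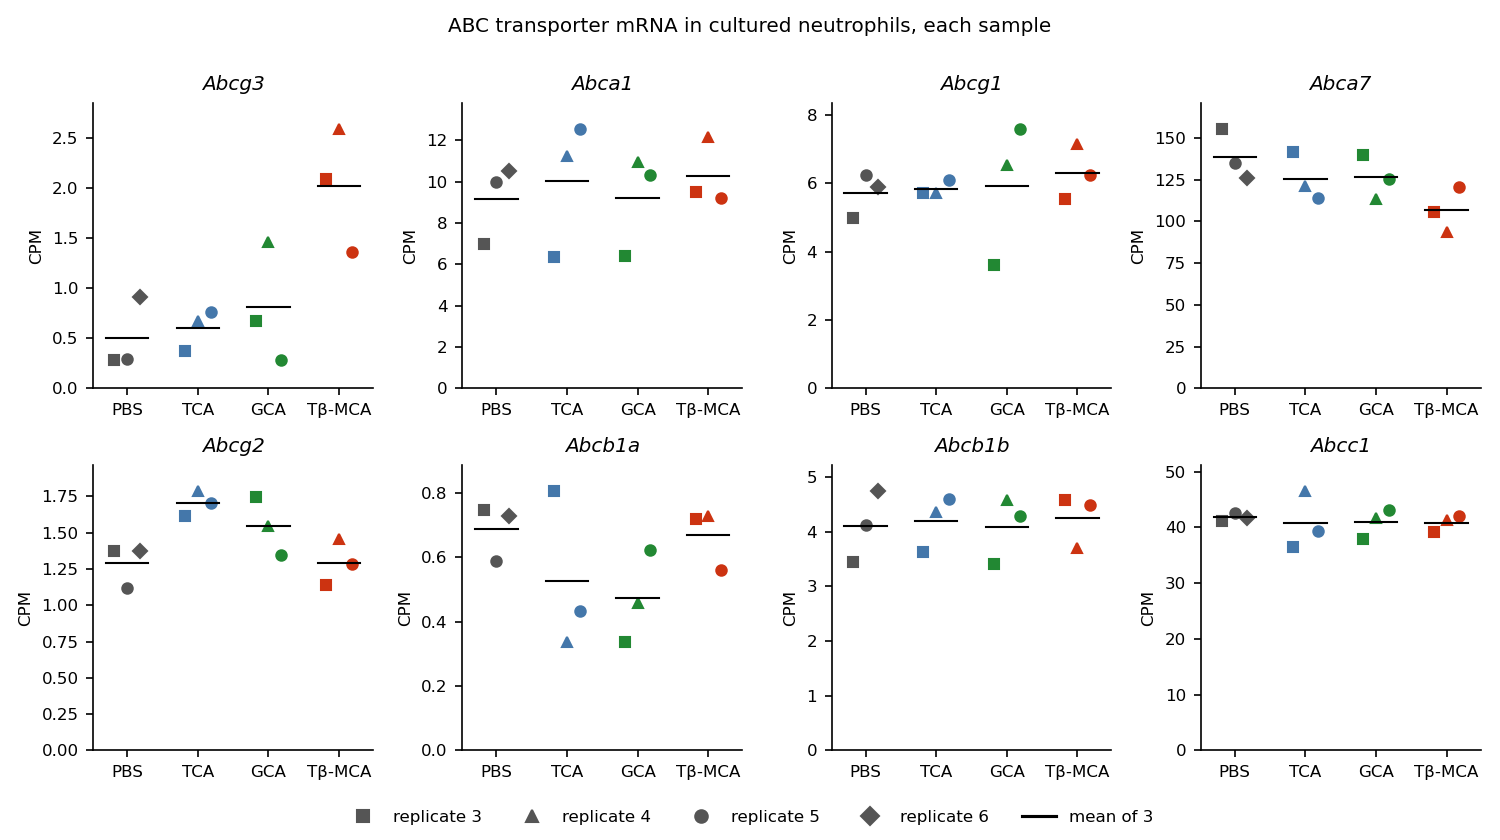
CPM (y axes, linear from 0) of each member in each of the 12 samples, by group, with the symbol giving the replicate number of the labels and the bar the mean of 3 samples. Abcg3 is at 1.36 to 2.59 CPM with Tβ-MCA and at 0.287 to 0.916 CPM with PBS, and the Abca7 samples with Tβ-MCA lie below those with PBS.

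The cholesterol exporters Abca1 and Abcg1 differed little between groups. Abca1 was at 6.97, 10.0 and 10.5 CPM with PBS (replicates 3, 5 and 6) and at 9.48, 12.1 and 9.20 CPM with Tβ-MCA (replicates 3, 4 and 5). With TCA it was at 6.36, 11.2 and 12.6 CPM, and with GCA at 6.42, 10.9 and 10.3 CPM. The groups overlapped throughout, and the sample numbered 3 was the lowest of its group with PBS, TCA and GCA. In those groups the mean of the other samples was 1.47, 1.87 and 1.66 times the level of number 3.

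Abca1 had a log2 fold change of 0.17 ± 0.26 (SE) with Tβ-MCA. It was 0.14 with TCA (95% interval -0.44 to 0.72, adjusted p = 0.9999) and 0.01 with GCA (-0.57 to 0.59, adjusted p = 0.9987). These intervals hold increases of up to 0.72 and 0.59, so a modest change could not be detected with 3 samples a group.

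Abcg1 was at 4.99, 6.24 and 5.90 CPM with PBS and at 5.53, 7.15 and 6.23 CPM with Tβ-MCA. With TCA it was at 5.70, 5.73 and 6.09 CPM, and with GCA at 3.60, 6.53 and 7.60 CPM. Number 3 was the lowest sample in all 4 groups, by most with GCA, where the others averaged 7.06 CPM. The log2 fold change was 0.14 ± 0.21 (SE) with Tβ-MCA, 0.03 with TCA (95% interval -0.41 to 0.47) and 0.05 with GCA (-0.39 to 0.49). Neither TCA nor GCA passed the test (adjusted p = 0.9999 and 0.9987).

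Abca7, an ABCA lipid transporter linked to phagocytosis, was the most abundant member. With PBS it was at 155.5, 135.1 and 125.9 CPM, with TCA at 141.5, 121.1 and 114.3 CPM, and with GCA at 140.0, 113.7 and 125.7 CPM. With Tβ-MCA it was at 105.9, 93.5 and 120.7 CPM. All 3 Tβ-MCA samples lay below all PBS samples, and replicate 3 was the highest sample of each of the other groups. Its log2 fold change was -0.38 ± 0.11 (SE) with Tβ-MCA, a mean of 106.7 against 138.8 CPM, as a description. It was -0.14 with TCA (95% interval -0.38 to 0.09) and -0.13 with GCA (-0.37 to 0.10), neither of which passed the test (adjusted p = 0.9999 and 0.9987). Across the 12 samples log2 CPM of Abca7 and Abcg3 had a Pearson r of -0.85, as a description. Tβ-MCA replicate 4 had the lowest Abca7 and the highest Abcg3, and Tβ-MCA replicate 5 was within the range of the other groups for both. No r without Tβ-MCA was calculated for this pair.

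The drug and conjugate pumps showed no separation with Tβ-MCA. Abcg2, the breast cancer resistance protein, was at 1.38, 1.12 and 1.37 CPM with PBS and 1.14, 1.46 and 1.28 CPM with Tβ-MCA. It was at 1.61, 1.79 and 1.70 CPM with TCA and 1.75, 1.55 and 1.35 CPM with GCA. All TCA samples lay above all PBS samples, yet the log2 fold change of 0.40 (95% interval -0.04 to 0.84) did not pass the test (unadjusted p = 0.0707, adjusted p = 0.9999). Its log2 fold change was 0.26 with GCA and 0.00 ± 0.21 (SE) with Tβ-MCA.

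Abcb1a, one of the genes for P-glycoprotein, rested on 12 to 27 counts per library. It was at 0.746, 0.588 and 0.728 CPM with PBS and 0.718, 0.729 and 0.562 CPM with Tβ-MCA. With TCA it was at 0.806, 0.338 and 0.433 CPM, and with GCA at 0.338, 0.458 and 0.622 CPM. Both of these groups overlapped PBS, with log2 fold changes of -0.41 (95% interval -1.19 to 0.37) and -0.53 (-1.32 to 0.25) that did not pass the test. Abcb1b, the other gene for P-glycoprotein, ranged from 3.41 to 4.74 CPM over the 12 libraries and overlapped between all groups. Abcc1, which exports glutathione conjugates and leukotriene C4, was at 41.8 ± 0.750 CPM with PBS and 40.8 ± 1.46 CPM with Tβ-MCA (SD, n = 3 each). Its log2 fold change was -0.03 in each of the contrasts with PBS, and with TCA and GCA the 95% intervals were -0.22 to 0.15 and -0.21 to 0.15.

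**Figure D3:**
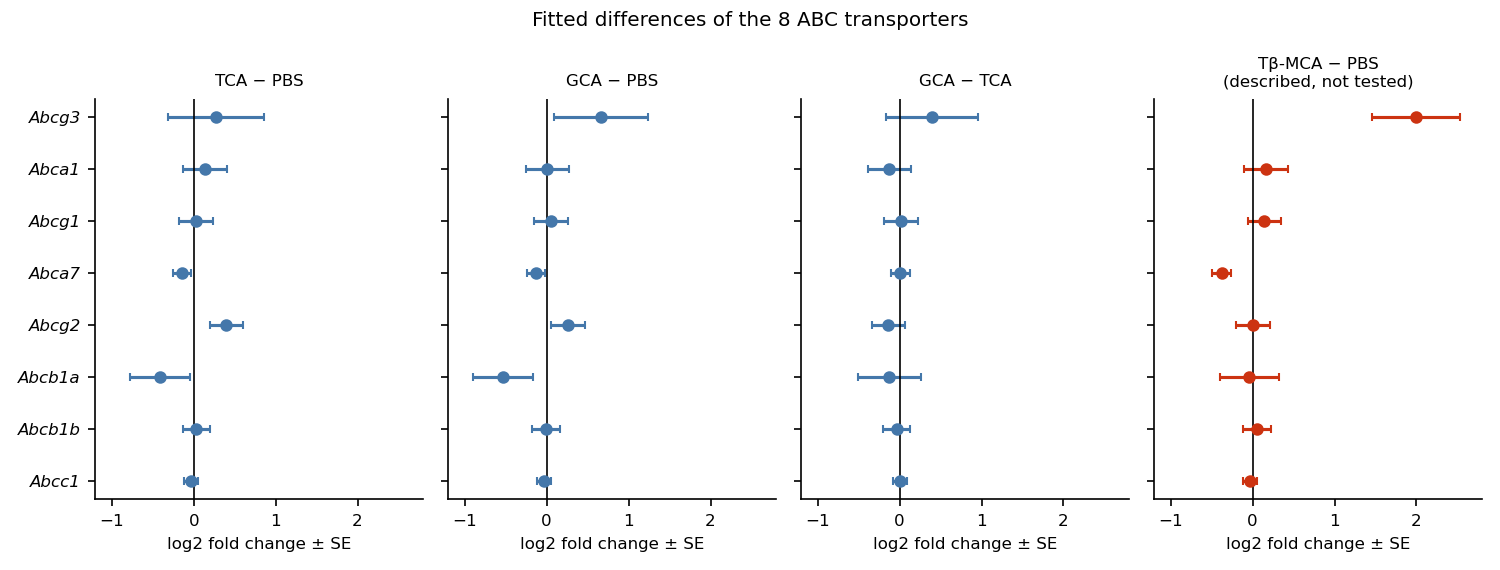
Fitted log2 fold change (x axes) of each member in the 4 contrasts, with the standard error as a bar. In the first 3 panels no member passed the test, and in the panel of Tβ-MCA, which was not tested, Abcg3 is at 1.99 and Abca7 at -0.38.

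Counted together, 0 of 8 members were called by edgeR in TCA against PBS, GCA against PBS or GCA against TCA, and 0 had an unadjusted p under 0.05. The background was of the same kind, since 0% of 16761 genes passed the adjusted threshold in each of these contrasts. At an unadjusted p under 0.05 the background was 3.26% with TCA, 3.53% with GCA and 2.46% between them. DESeq2 called 1 gene of all those tested with TCA and 0 in the other contrasts, and no member. In CPM, 1 member, Abcg2, did not overlap between TCA and PBS, against a background of 9.67%. None failed to overlap between GCA and PBS, against 9.54%, or between GCA and TCA, against 8.01%. Between Tβ-MCA and PBS, Abcg3 and Abca7 did not overlap, and 27% of all genes did not. Nothing is read from that count, since the choice of members used this contrast.

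TCA and GCA are the taurine and the glycine conjugate of cholic acid, and formed the only pair of bile acids matched in dose by the labels. The log2 difference of GCA over TCA was 0.39 for Abcg3 (95% interval -0.81 to 1.60), -0.13 for Abca1 (-0.71 to 0.45) and 0.02 for Abcg1 (-0.42 to 0.46). For Abca7 it was 0.01 (-0.23 to 0.25), for Abcg2 -0.14 (-0.57 to 0.29) and for Abcc1 0.00 (-0.18 to 0.19). For Abcb1a it was -0.12 (-0.93 to 0.68) and for Abcb1b -0.04 (-0.40 to 0.32). No member passed the test, with adjusted p = 0.9998 for all 8, and the interval of Abcg3 still holds a 2-fold difference in favour of GCA. Tβ-MCA, a taurine conjugate of muricholic acid, is given beside them by its values alone because the labelled doses differ.

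Other ABC genes were followed through a list of 45, of which 41 were in the table and 31 passed the filter. In TCA against PBS, GCA against PBS and GCA against TCA, 0 of 31 were called by edgeR, beside 0% of all genes. At an unadjusted p under 0.05 the counts were 0, 3 and 1 of 31, beside 3.26%, 3.53% and 2.46% of all genes. The 3 with GCA over PBS were Tap1, Tap2 and Abcf2, with log2 fold changes of 0.17, 0.15 and -0.14. Tap2 was also the 1 with GCA over TCA, at 0.15. DESeq2 called none of them either.

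With Tβ-MCA over PBS, 2 of 31 other ABC genes were called, 1 in each direction, beside 7.62% of all genes. By the same edgeR test 12 of 31 had an unadjusted p under 0.05, beside 24.9% of all genes. Abcd2, which carries very-long-chain fatty acids into peroxisomes, was at 76.9, 71.5 and 72.0 CPM with PBS and at 53.5, 56.9 and 65.0 CPM with Tβ-MCA. It fell, with a log2 fold change of -0.33 ± 0.08 (SE; adjusted p = 0.029), and no sample overlapped. Tap1, which loads peptides into the endoplasmic reticulum for MHC class I, was at 52.0, 51.7 and 58.8 CPM with PBS and at 68.9, 65.1 and 60.9 CPM with Tβ-MCA. It rose, with a log2 fold change of 0.26 ± 0.08 (SE; adjusted p = 0.0473), and all Tβ-MCA samples lay above all PBS samples. Both adjusted p-values come from edgeR's quasi-likelihood test. The median over the 31 genes was -0.00017 on the log2 scale, beside 0.0041 over all genes tested.

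The calls changed when single libraries were left out, with the direction kept, from -0.41 to -0.27 for Abcd2 and from 0.22 to 0.32 for Tap1 on the log2 scale. Without PBS replicate 3, 5 or 6, or without Tβ-MCA replicate 3 or 4, 0 of the 31 were called, with an adjusted p of 0.0528 to 0.196 for Tap1 and 0.0585 to 0.137 for Abcd2. In those 5 fits the calls over all genes fell too, to 168 without PBS replicate 6 and to 0 in the other 4. Without Tβ-MCA replicate 5, 8 of the 31 were called, beside 3076 of 17131 genes or 18% in the same fit. Besides Abcd2 (-0.41) and Tap1 (0.31) they were Abca9 (-1.56), Abca6 (-0.87), Abce1 (-0.41), Abcf2 (-0.22), Abcd4 (0.47) and Abcd3 (0.33), all as log2 fold changes. Abca9 was at 28.0, 28.4 and 30.1 CPM with PBS and at 8.13, 11.4 and 24.0 CPM with Tβ-MCA. Abca6 was at 12.7, 14.3 and 15.0 CPM with PBS and at 7.21, 8.10 and 14.5 CPM with Tβ-MCA. Tβ-MCA replicate 5 was thus nearest to PBS for both genes, and it also had the highest monocyte and macrophage marker sum of its group.

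**Figure D4:**
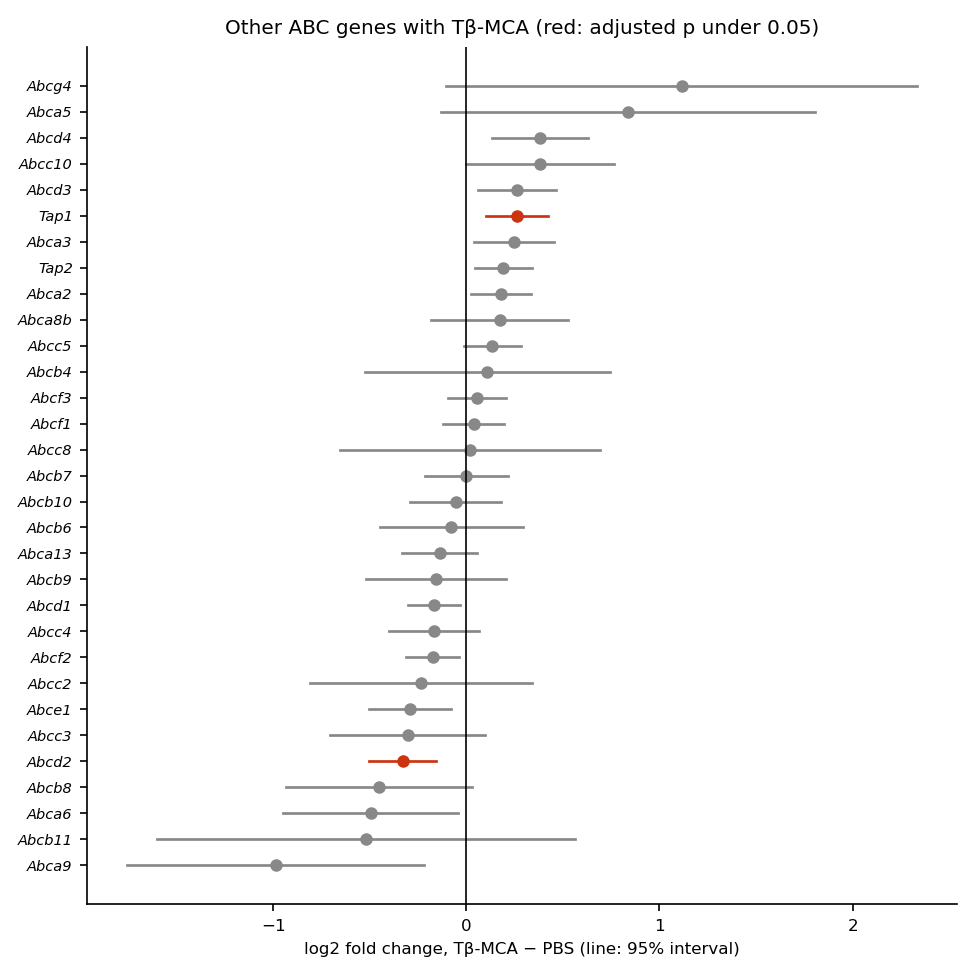
Log2 fold change of Tβ-MCA over PBS (x axis, line for the 95% interval) of the 31 other ABC genes that passed the filter. The 2 genes in red passed the test, Abcd2 at -0.33 and Tap1 at 0.26, and Abca9 lies lowest with a wide interval.

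LXR activity beyond Abca1 and Abcg1 was read from a list of 17 further targets, of which 16 passed the filter. By edgeR 0 of 16 were called in any contrast with PBS or between GCA and TCA. Over all genes 7.62% were called with Tβ-MCA and 0% in the other contrasts. With TCA 0 had an unadjusted p under 0.05, and with GCA 1 did, Acaca, the acetyl-CoA carboxylase of fatty acid synthesis, at a log2 fold change of 0.23. Between GCA and TCA 1 did, Nr1h3, at 0.53. At this threshold the shares of all genes were 3.26% with TCA, 3.53% with GCA and 2.46% between them. With Tβ-MCA 4 of 16 had an unadjusted p under 0.05, beside 24.9% of all genes. They were Scd2, a fatty acid desaturase (0.53), Nr1h3 (-0.63), the apolipoprotein gene Apoc2 (-1.46) and Cd5l, a secreted macrophage protein (-1.17), again as log2 fold changes. The median of the 16 with Tβ-MCA was -0.19, beside 0.00 over all genes tested, and 11 of 16 were below 0. DESeq2 called 3 of the 16 with Tβ-MCA, 1 higher and 2 lower, beside 2103 of 16761 genes or 12.5%.

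Apoc2 was at 30.8, 38.9 and 36.1 CPM with PBS and at 6.10, 9.18 and 22.9 CPM with Tβ-MCA, and the 3 Tβ-MCA samples followed the order of their monocyte and macrophage marker sums. Nr1h3, the gene of LXRα, was at 2.70, 3.38 and 4.02 CPM with PBS and at 1.55, 2.08 and 2.89 CPM with Tβ-MCA, with an overlap. Leaving out single libraries gave 0 to 6 called targets. The 6, of 17 that then passed the filter, came without Tβ-MCA replicate 5, where 18% of all genes were called, and in 4 of the 5 other fits 0 genes of any kind were called. Without it the log2 fold changes were -2.20 for Apoc2, -1.18 for Mertk, -2.48 for Lpl, -1.96 for Cd5l, -0.89 for Nr1h3 and -1.003 for Apoe. Apoe, Lpl, Mertk and Cd5l are also known as macrophage genes.

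**Figure D5:**
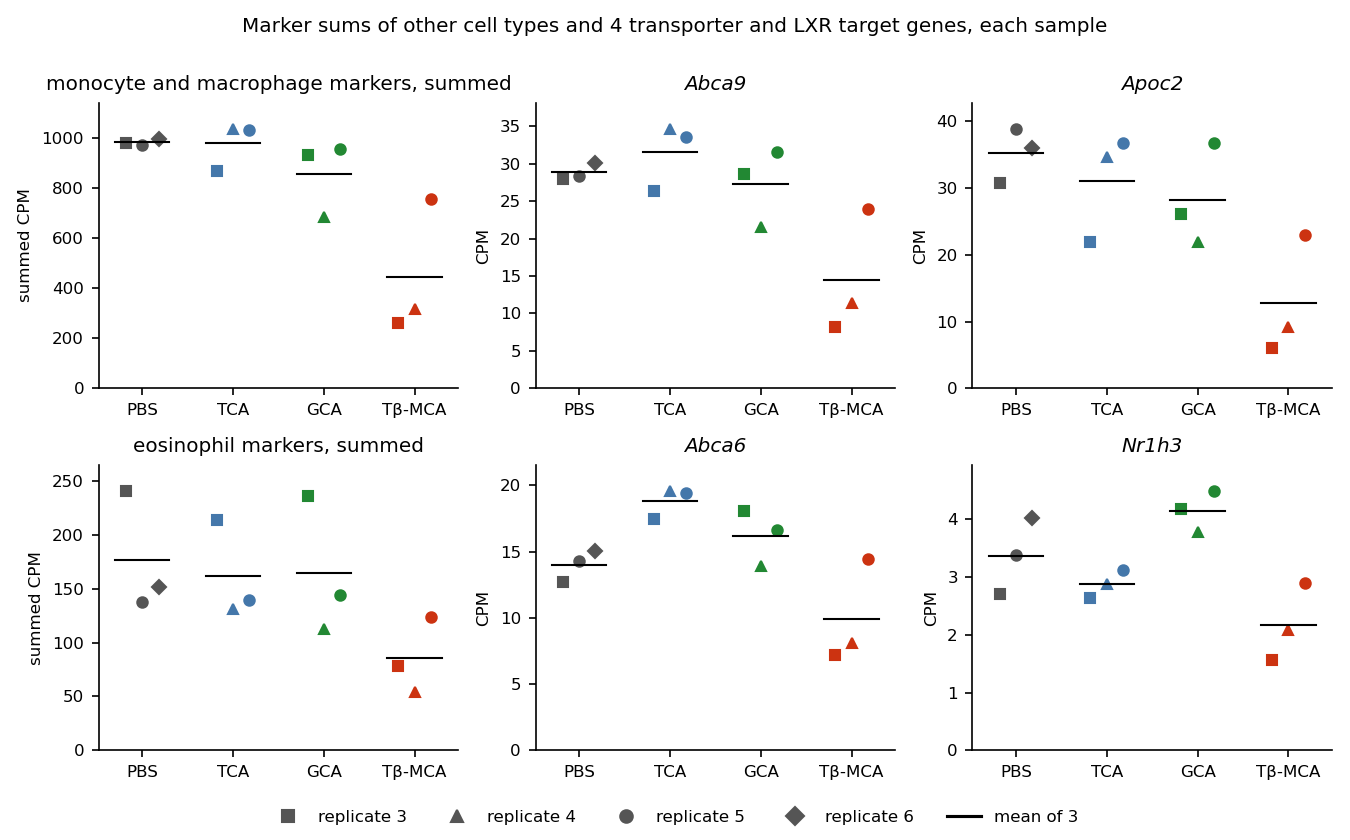
Summed CPM of the monocyte and macrophage markers and of the eosinophil markers (left panels), and CPM of Abca9, Apoc2, Abca6 and Nr1h3 (other panels), in each sample by group; symbols give the replicate number and bars the mean of 3. Tβ-MCA replicates 3 and 4 are low in all panels of genes and in the monocyte and macrophage sum, at 261 and 315 CPM, and replicate 5 is nearer to PBS.

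Receptors and carriers that could link bile acids to these transporters were described by detection. Of a list of 19, 14 were in the table and 10 passed the filter. The bile acid receptor Nr1h4 (FXR) had 0 counts in 11 of 12 libraries and at most 2, and the membrane receptor Gpbar1 (TGR5) had 0 in 7 libraries and at most 4. A count of 0 allows up to 3 counts here, or 0.0725 to 0.0916 CPM, for counting error only. The carrier Slc10a1, which takes up conjugated bile acids in the liver, had 20 to 51 counts. Of the LXR genes, Nr1h2 averaged 29.7 RPKM and Nr1h3 1.25 RPKM.

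With Tβ-MCA over PBS 3 of the 10 passed edgeR's quasi-likelihood test, beside 7.62% of all genes, and are named after their values were seen. Rxra, the receptor that pairs with the LXRs and FXR on DNA, was at 33.9, 40.2 and 41.5 CPM with PBS and at 61.1, 63.4 and 52.5 CPM with Tβ-MCA. It rose by 0.62 ± 0.10 on the log2 scale (SE; adjusted p = 0.0206), and no sample overlapped. Slco4a1, an organic anion carrier, was at 6.34, 7.26 and 6.17 CPM with PBS and at 3.14, 3.89 and 5.46 CPM with Tβ-MCA. Its log2 fold change was -0.66 ± 0.17 (adjusted p = 0.0350). Slco2b1, of the same carrier family, was at 3.38, 1.53 and 1.46 CPM with PBS and at 0.598, 0.756 and 1.07 CPM with Tβ-MCA. For it the log2 fold change was -1.38 ± 0.39 (adjusted p = 0.0453). Both fell without overlap, and for both the Tβ-MCA samples followed the order of their monocyte and macrophage marker sums. Of the 6 fits without a single sample, Rxra was called in 2, without PBS replicate 6 or Tβ-MCA replicate 5, and each carrier in 1, without Tβ-MCA replicate 5. The log2 fold changes without 1 sample were 0.53 to 0.69 for Rxra, -0.90 to -0.50 for Slco4a1 and -1.64 to -0.87 for Slco2b1. With TCA or GCA over PBS none of the 3 was called, with adjusted p = 0.9999 and 0.9987.

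In the 500 kb on either side of Abcg3, 17 genes were listed and 13 passed the filter. Among the nearest were guanylate-binding protein genes, interferon-inducible GTPases, and Spp1 (osteopontin) lay at the far edge. With Tβ-MCA 2 of 13 rose and 1 fell, beside 4.44% and 3.18% of all genes. Gbp6, 288 kb away, rose by 1.38 ± 0.27 on the log2 scale (SE; adjusted p = 0.0208), and Gm43302 by 1.44 ± 0.31 (adjusted p = 0.0221). The interval of Gm43302 spans that of Gbp6, so the 2 are not separate observations, and the division of reads between them is uncertain. Spp1 fell by 0.62 ± 0.17 (adjusted p = 0.0414), all by edgeR's quasi-likelihood test. Gbp8, the tested gene nearest to Abcg3 at 31.4 kb, had a log2 fold change of 0.23 ± 0.26 and Zfp951, at 75 kb, one of 0.28 ± 0.31. Gbp4 and Gbp9 had -1.15 and 0.41, and none of these 4 passed. The interval of Gbp8 overlaps those of Gbp9 and Gbp4, and that of Gm43302 also holds Gbp10, so these are not fully separate observations either. Without single samples of the groups compared, 0 to 3 of the neighbours were called, with 0 when PBS replicate 3 or 5 or Tβ-MCA replicate 3 or 4 was left out and 1 without PBS replicate 6. Over the 13 neighbours, with overlapping genes counted separately, the median was 0.23, beside 0.00 over all genes tested.

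The genes whose pattern over the 12 samples was most like that of Abcg3 were sought by Pearson's r of log2 CPM. They were Mrgpre (r = 0.970), Malt1 (0.966), Ptprn2 (0.957), Lrrc57 (0.954) and Gm11632 (0.953). Mrgpre encodes a receptor of the Mas-related family and Malt1 the paracaspase of NF-κB signalling. Over the 9 samples without Tβ-MCA the same genes had r of 0.906 to 0.955. These 9 are among the 12 samples by which the genes were picked, so this is no separate check. Mrgpre was at 0.889, 0.971 and 1.37 CPM with PBS and at 2.30, 2.32 and 1.55 CPM with Tβ-MCA, and it shared with Abcg3 a high PBS replicate 6 and a high GCA replicate 4, at 1.72 CPM.

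For Abca1, genes of similar pattern were Rpl17-ps10 (r = 0.952), Tcp1 (0.949), Rps4x (0.948) and Gm28037 (0.945). Their r was 0.947 to 0.971 over the 9 samples without Tβ-MCA, which is no separate check here either. Rpl17-ps10 is a ribosomal protein pseudogene whose reads can belong to its parent gene. Among the members, Abca1 had r = 0.70 with Abcg1 and 0.71 with Abcb1b. These are descriptions over samples that share libraries, depth and the low values of the samples numbered 3.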

How the data were processed

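The authors deposited read counts per gene and RPKM (reads scaled to library total and gene length) from 12 libraries made with a stranded mRNA kit. The submitters' processing notes name Trimmomatic 0.36, STAR 2.5.3a, featureCounts and Subread 1.5.1, and builds GRCm38 and mm10. The use of strand and of molecular identifiers in counting was not given in the sources used here. The deposited RPKM were the deposited counts scaled by library total and gene length, and were used for levels between genes. Columns whose names write GA were taken as GCA, as in the series' design text.

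Counts were fitted in edgeR 4.0.16 (R 4.3.3) with TMM scaling, filterByExpr by group and robust quasi-likelihood tests over all 12 samples, with Benjamini-Hochberg adjustment over 16761 genes and a threshold of 0.05. CPM used TMM-scaled totals. Alternatives were total library size, other filters, a replicate block, only the 2 groups compared, DESeq2 1.42.0, limma 3.58.1 on log2(RPKM + 1), another call rule and leaving out each sample. The fit was tested on simulated data. The 8 members and the gene lists were chosen with earlier results of these data known. Named genes were the members, called genes of the lists of ABC genes and LXR targets, tested genes within 500 kb of Abcg3, and the 5 genes most like Abcg3 and Abca1 by Pearson's r, of which 1 for Abca1 is not reported here. Receptors and carriers were listed for detection only, and the called ones, like list genes counted by unadjusted p or called without 1 sample, were named after their values were seen. Promoters came from RefSeq (GRCm38.p6). Total counts of 32757389 to 41375925 per library set the precision, and 3 counts were taken as the floor.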

Additional observations from a re-analysis of the deposited data

How the results depend on the processing

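In TCA against PBS, GCA against PBS and GCA against TCA, 0 members, 0 other ABC genes and 0 LXR targets were called under every alternative run, also with either filter and without each sample. The counts with Tβ-MCA moved. The 2 called of 31 other ABC genes became 4 with total library size and 5 with DESeq2. They became 4 of 41 with no filter on low counts and 1 of 24 with limma on log2(RPKM + 1). The count was 0 both with only the 2 groups compared and with an unadjusted p under 0.05 and a 2-fold change. Leaving out 1 sample gave 0 to 8. The 0 called of 16 LXR targets became 8 of 17 with no filter, 3 with DESeq2 and 1 of 15 with limma. The count was 2 with the unadjusted rule, and 0 to 6 without 1 sample. With only these 2 groups in the fit 0 genes of any kind were called, with 3485 at an unadjusted p under 0.05. Over all genes the share called was 8.4% with total library size, 8.09% with no filter, 12.5% with DESeq2 and 6.38% with limma. Without 1 sample it was 0% to 18%, and for the unadjusted rule it is not given here. The cause of these shifts was not tested. The fit of only the 2 groups also held fewer samples.

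Abcg3 with Tβ-MCA ranged from 1.72 to 2.78 (log2) without 1 sample, and Abca7 from -0.48 to -0.29. Abca1 with Tβ-MCA ranged from 0.00377 to 0.277 and Abcg1 from 0.0441 to 0.229. Abcg2 (-0.0908 to 0.0867), Abcb1a (-0.1395 to 0.0716) and Abcb1b (-0.0597 to 0.170) changed sign with Tβ-MCA. Abcc1 with Tβ-MCA was 0.0135 with total library size and 0.0101 with limma. Of the 24 tested member differences, none called, these changed sign without 1 sample, given as log2 ranges. With TCA over PBS they were Abcg3 -0.00997 to 1.06, Abcg1 -0.0568 to 0.09999, Abca1 -0.0515 to 0.375, Abcb1b -0.0801 to 0.152, Abcc1 -0.143 to 0.0400. With GCA over PBS they were Abcg3 -0.0814 to 1.45, Abcg1 -0.173 to 0.308, Abca1 -0.151 to 0.213, Abcb1b -0.115 to 0.114, Abcc1 -0.0694 to 0.0228. With GCA over TCA they were Abcg3 -0.349 to 0.808, Abcg1 -0.206 to 0.275, Abca1 -0.366 to 0.076, Abca7 -0.0692 to 0.103, Abcb1a -0.378 to 0.301, Abcb1b -0.13 to 0.0767, Abcc1 -0.0696 to 0.115. Abcb1b with GCA over PBS was 0.00934 with total library size and 0.00361 with limma, and Abcg1 with GCA over TCA was -0.00523 with limma. The 3 called receptors and carriers kept their direction in every alternative run, and were not called with only the 2 groups compared. Slco4a1 was not called with limma either, and Slco2b1 was not in the limma fit. Near Abcg3, alternatives chosen after seeing the data gave 0 to 4 called genes.

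Groups shared some replicate numbers, and the labels do not say what a number marks. Of the same-numbered pairs, 12 of 15 had a correlation of deviations over 0.1 (mean 0.19, beside -0.07 for 39 other pairs), below the requirement that every pair pass, so the numbers were not taken as pairing the samples. The 6 pairs of number 3 had 0.197 to 0.326, the 9 others 0.0597 to 0.239, and 10 of 11 samples correlated best with a sample of their own number, a hint from the data. With the number as a replicate block, calls over all genes went from 1278 to 1498 with Tβ-MCA and from 0 to 3 with TCA. In it 2 of 31 other ABC genes and 2 of 16 LXR targets were called with Tβ-MCA, beside 8.94% of all genes. Abcg3 was at 2.47 and Abcc1 at -0.0791. In that replicate block fit GCA over PBS was -0.00397 for Abcg1, -0.00954 for Abca1 and 0.106 for Abcb1b, and GCA over TCA was -0.0119 for Abcg1, again uncalled. It changed no call of a member in the tested contrasts.

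With 3 samples a group and 10 to 96 counts per library, Abcg3 was measured less precisely than Abcc1. Its log2 fold changes over PBS had standard errors of 0.54 to 0.59, beside 0.09 for Abcc1. A difference of -0.03, as fitted for Abcc1, was resolved for neither gene.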
